A study of Mus musculus with 12 samples.

Results

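The 942 transcripts described here are those that a custom mouse array names only by an Ensembl transcript identifier (an accession beginning with ENSMUST). They were chosen as every non-control probe whose name starts with those letters, out of 97836 non-control probes, and each transcript had 1 probe printed in 2 spots. The array gives these probes no gene symbol, transcript class or position, so an identifier is the whole identity available here. That they are non-coding is a label given to this set and could not be checked. The RNA came from spleens of 12 female BALB/c mice, aged 6 weeks at the start and given intraperitoneal injections on days 1, 3 and 5. The OVA groups received ovalbumin, an egg-white protein used to sensitise mice, at 2 mg/kg, and the control groups received normal saline. Spleens were taken on day 14 (2 control and 4 OVA mice) or day 28 (2 control and 4 OVA mice). No genetic change was stated for any group, and all 4 groups were of the same strain, sex and starting age.

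Ensembl assigns a transcript identifier to each spliced form of a gene. Its non-coding classes include long intergenic RNAs, antisense RNAs, pseudogene transcripts and forms of protein-coding genes that keep an intron or lack an open reading frame. Many such RNAs stay in the nucleus, and as a class they are known to be less abundant and more restricted to particular cell types than messenger RNAs. In the spleen, where B cells, T cells, myeloid cells and erythroid precursors lie side by side, some long non-coding RNAs are known to mark activated lymphocytes. Which of these kinds a given probe reads cannot be taken from its identifier.

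Each array was read in 1 colour and held 175906 non-control spots, 1884 of them for the Ensembl transcripts. Values are given as log2 of the signal over that array's own 75th percentile of non-control spots, so that 0 is the percentile itself. The percentile stood at 267.4 to 370.8 intensity units in the controls and OVA day 14, and at 484.2 to 549.4 in OVA day 28. All 4 control arrays lay on slide 1, the OVA day 14 arrays on slide 2 and the OVA day 28 arrays on slide 3, so slide and group cannot be told apart in any comparison that involves OVA. Control day 14 replicate 1 carried a bright streak of 3439 spots, with a median excess of 2.44 over the other arrays, which took in 42 spots of 40 Ensembl transcripts. OVA day 14 replicate 2 was the array with the fewest spots well above background (57.5% of all spots, against 72.4% to 80.0% elsewhere). No Ensembl spot was saturated. Spleen cell markers were not checked because no probe of theirs carries a gene name here.

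On most arrays between 60.5% and 69.5% of the Ensembl transcripts gave a signal, and they did so less often than most other probes. A transcript counted as detected on an array where at least 1 of its spots was called well above background by the scanner software. Of the 942 transcripts, 369 (39.2%) were detected on all 12 arrays, 377 (40.0%) on some and 196 (20.8%) on none. Over all probes these shares were 58.0%, 29.1% and 12.9%. By class, detection on all 12 arrays was 70.3% for catalogue probes, 56.4% for RIKEN clones, 51.8% for NONCODE transcripts, 39.1% for RefSeq non-coding transcripts and 31.9% for ultraconserved elements. The Ensembl transcripts were therefore close to the RefSeq class, and their share of spots well above background was lower than that of the catalogue, RIKEN and NONCODE classes on each of the 12 arrays.

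The share of Ensembl transcripts detected was 72.0% on control day 14 replicate 1, the array with the streak, and 39.4% on OVA day 14 replicate 2. It lay between 60.5% and 69.5% on the other 10 arrays. Detection on all 12 arrays rested on OVA day 14 replicate 2, since 513 transcripts were detected on all 11 of the others. The lowest spot average of any probe detected on that array was -4.16, against -5.92 to -5.35 on the rest. Such an average can include a spot that was not well above background. Counted by group, 566 transcripts were detected on both control day 14 arrays, 369 on all 4 OVA day 14 arrays, 595 on both control day 28 arrays and 563 on all 4 OVA day 28 arrays. All transcripts detected throughout OVA day 14 were thus those detected on all 12 arrays. Of the 57 transcripts detected on exactly 1 array, 9 had a spot in the streak of control day 14 replicate 1.

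**Figure D1:**
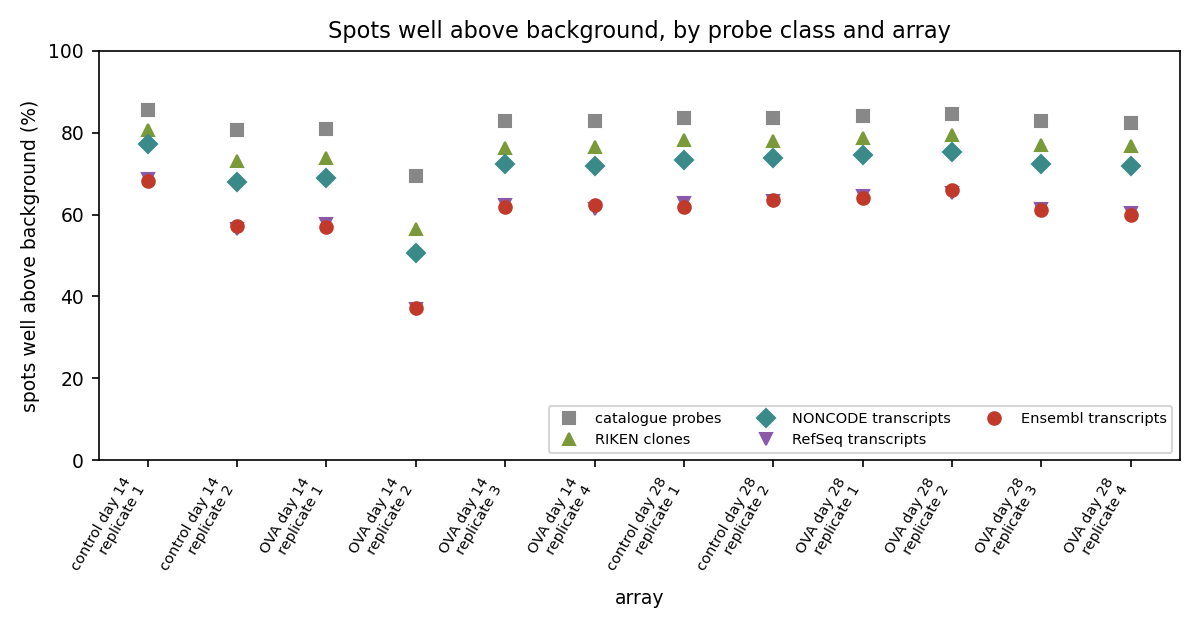
Share of spots well above background (%, y axis) on each of the 12 arrays (x axis), with 1 symbol per probe class and red circles for the Ensembl transcripts. The Ensembl and RefSeq classes lay lowest of the 5 classes drawn on every array, and the Ensembl share ran from 37.1% on OVA day 14 replicate 2 to 68.1% on control day 14 replicate 1.

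The signal of most Ensembl transcripts was low and that of a few was very high. The mean over the 12 arrays had a median of -3.78 over the transcripts, with quartiles at -5.69 and -1.90, against a median of -2.31 over all probes. Of the Ensembl transcripts, 94 (9.99%) lay above the 75th percentile in the mean, against 23.7% of all probes. A probe's signal also depends on its own sequence and labelling, so an order of signals is not an order of RNA amounts. With that limit, the brightest was ENSMUST00000189178, with 6.55 and 6.55 in the day 14 controls, 6.91, 6.62, 6.59 and 6.62 in OVA day 14, 6.63 and 6.74 in the day 28 controls and 6.83, 6.60, 6.67 and 6.45 in OVA day 28. Its OVA values lay above both controls at day 14 and overlapped them at day 28, and its OVA effect did not pass the test on either day (adjusted p = 0.666 and 0.838, limma). ENSMUST00000188920 was the next brightest, at 5.82 to 6.29 over the 12 arrays. These 2 neighbours in the order did not overlap on any array, whereas the 4 that followed overlapped one another.

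Those 4 were ENSMUST00000150621 (4.27 to 5.20), ENSMUST00000194822 (4.34 to 5.08), ENSMUST00000161005 (4.37 to 4.76) and ENSMUST00000161681 (4.18 to 4.85). ENSMUST00000150621 gave 4.75 and 5.14 in the day 14 controls, 5.20, 4.97, 4.77 and 4.83 in OVA day 14, 4.90 and 4.89 in the day 28 controls and 4.52, 4.27, 4.64 and 4.46 in OVA day 28. It was lower in OVA day 28 than in OVA day 14 by a log2 difference of -0.47 ± 0.12 (SE, adjusted p = 0.0153, limma), with no overlap, and its difference from the day 28 controls of -0.42 ± 0.15 did not pass (adjusted p = 0.0919, limma). At the dim end of the transcripts detected on all 12 arrays were ENSMUST00000186656 (-4.34 to -3.31) and ENSMUST00000132218 (-4.61 to -3.09). The steadiest of the transcripts detected everywhere was ENSMUST00000181490, which stayed between 2.38 and 2.64 over all 12 arrays.

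**Figure D2:**
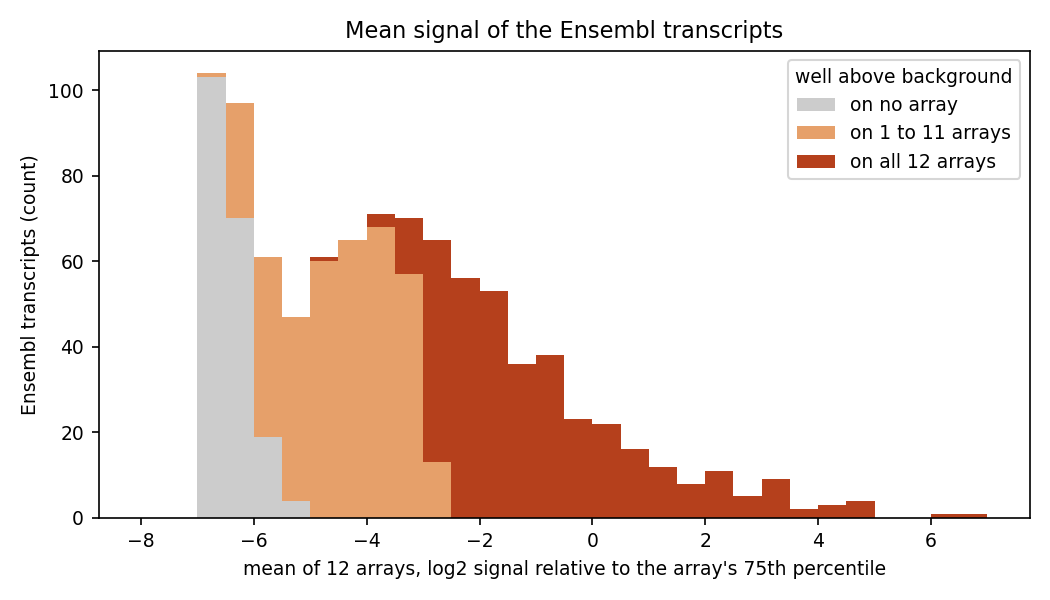
Number of Ensembl transcripts (y axis) by mean signal over the 12 arrays (x axis, log2 over the array's 75th percentile), coloured by the number of arrays on which they were well above background. Transcripts detected on no array sit below -5, and those detected on all 12 lie almost wholly above -4, with the tail reaching 6.65.

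Replicate spread was small beside this range. Over the 369 transcripts detected on all arrays the median SD between replicates was 0.127 in the day 14 controls, 0.141 in OVA day 14, 0.129 in the day 28 controls and 0.136 in OVA day 28. The 2 spots of a detected transcript differed by a median of 0.126 to 0.182 on an array. The spots disagreed by more than 2 on the log2 scale for 178 transcript and array pairs, which involved 104 transcripts, 30 of them tested, and 43 of these pairs were on control day 14 replicate 1.

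A few large values were those of single spots. ENSMUST00000180933 read -0.89 on control day 14 replicate 1 and -3.66 to -2.88 on the other 11 arrays, and on that array its spots read -2.86 and 1.07, the brighter one inside the streak. ENSMUST00000181680 read 1.14 on OVA day 14 replicate 2 and -2.03 to -0.82 elsewhere, from spots at 3.51 and -1.23. ENSMUST00000135438, the dimmest transcript detected on all 12 arrays (-5.19 to -3.68), was detected through 1 spot only. Its first spot was not well above background on any array (mean -6.54), its second was on all 12 (mean -3.08), and the second was the brighter on every array by 2.86 to 3.99. No other of the 369 had a median difference between its spots above 1, so that its value here averages a detected and an undetected spot.

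Detection also varied along the identifier number, which Ensembl assigns in order of annotation. Among the 23 transcripts numbered below 120000, 3 (13%) were detected on all 12 arrays, and none had a mean above the 75th percentile. From 120000 to below 180000 this was 129 of 304 (42.4%, median signal -3.52), from 180000 to below 190000 it was 187 of 447 (41.8%, median signal -3.52), and from 190000 upward it was 50 of 168 (29.8%, median signal -4.39). These blocks were drawn with the data in view and were not tested against one another.

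At day 28, 51 of the 620 tested Ensembl transcripts differed between OVA and control, 34 higher and 17 lower in OVA, and most differences were under 2-fold. A transcript was tested where it was detected on every array of at least 1 group, and it was called at an adjusted p under 0.05 in limma, adjusted over all 76096 tested probes. The 51 are 8.23% of the tested transcripts, whereas 12.8% of all tested probes were called. Upward calls were 5.48% against 6.88% of all probes, and downward calls 2.74% against 5.92%. At 2-fold or more stood 5 of the called transcripts, 4 higher and 1 lower (0.806%, against 1.24% of all probes). The median difference was 0.00 over the Ensembl transcripts and -0.03 over all probes, with a median SE of 0.169 for the transcripts. Arrays of the 2 groups did not overlap for 179 transcripts (28.9%), 97 of them higher and 82 lower in OVA, against 41.2% of all probes (18.7% higher and 22.5% lower). A spleen RNA sample cannot tell fewer or more cells of a type from less or more RNA per cell.

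Calls at day 28 were more frequent at higher signal. With mean signal from -6 to -4, 4 of 114 transcripts were called (3.51%, against 6.91% of all probes in that range), and from -4 to -2, 16 of 262 (6.11% against 7.64%). From -2 to 0 the count was 18 of 150 (12% against 14.9%), from 0 to 2 it was 8 of 58 (13.8% against 18.6%), and above 2 it was 5 of 36 (13.9% against 16.9%). The Ensembl share was below that of all probes in each of the 5 ranges, and this difference was not tested.

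The highest fold among the called transcripts was that of ENSMUST00000174851. It read -1.51 and -1.34 in the day 28 controls and 0.59, 0.72, 0.12 and -0.54 in OVA day 28, with all 4 OVA arrays above both controls and a spread of 0.57 (SD) among them. The difference was 1.64 ± 0.30 (SE), or 3.13-fold, with an adjusted p of 0.00823 (limma). The call did not hold without control day 28 replicate 1 (1.56, adjusted p = 0.0613) or without control day 28 replicate 2 (1.73, adjusted p = 0.0573, both limma), and over 26 other settings its adjusted p lay between 0.00164 and 0.0613. In the day 14 animals it lay between -2.0 and -1.18 on all 6 arrays, so the 4 OVA day 28 arrays were the highest of the 12.

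ENSMUST00000187484 and ENSMUST00000132332 rose by similar amounts and varied less. ENSMUST00000187484 read -3.65 and -3.35 in the controls and -2.32, -2.15, -2.33 and -2.48 in OVA day 28, a difference of 1.18 ± 0.17 (2.27-fold, adjusted p = 0.00277, limma). ENSMUST00000132332 read -2.51 and -2.52 in the controls and -1.70, -1.45, -1.23 and -1.06 in OVA day 28, a difference of 1.16 ± 0.16 (2.23-fold, adjusted p = 0.00264, limma). Neither transcript's OVA values at day 28 overlapped with any of the other 8 arrays. ENSMUST00000132332 kept its call in all 26 other settings tried (adjusted p from 0.000422 to 0.0328) and ENSMUST00000187484 in the 25 in which it was tested (0.000850 to 0.0313). With normexp background correction their differences were smaller, 0.57 and 0.35.

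The remaining 3 of the 6 highest were ENSMUST00000144704, ENSMUST00000187764 and ENSMUST00000182303. ENSMUST00000187764 read -1.27 and -1.21 in the controls and -0.22, -0.53, -0.41 and -0.35 in OVA day 28 (0.87 ± 0.10, 1.82-fold, adjusted p = 0.00142, limma). In the day 14 groups it was lower than in the day 28 controls, at -1.80 to -1.42, without overlap. ENSMUST00000182303 read -1.76 and -1.96 against -0.94, -1.02, -1.07 and -1.16 (0.82 ± 0.19, adjusted p = 0.0195, limma), and missed the threshold without control day 28 replicate 1 (0.92, adjusted p = 0.0680) or replicate 2 (0.72, adjusted p = 0.136, both limma), the extremes over other settings being 0.00471 and 0.136. ENSMUST00000144704 was the least firm of the 6. It read -5.81 and -4.60 in the controls, 1 of them well above background, and -4.02, -3.78, -4.09 and -4.51 in OVA day 28. Its difference of 1.1 ± 0.31 (adjusted p = 0.0386, limma) was 0.50 without control day 28 replicate 1 (adjusted p = 0.346) and 1.71 without replicate 2, and the adjusted p lay between 0.0170 and 0.346 over other settings. It also missed the threshold when OVA day 14 replicate 4 was left out (adjusted p = 0.0534), and likewise OVA day 28 replicate 1 (0.0789), replicate 2 (0.0844) or replicate 3 (0.0736, all limma), with differences of 0.99 to 1.1 in these 4 fits. The transcript further missed it without the filter on dim probes (adjusted p = 0.0681) and with only the groups compared (0.0734). The same held with replicate (0.0801) or array position (0.121, all limma) as a block, at differences of 1.09 and 1.11. With normexp its sign turned (-0.14).

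Downward differences were smaller apart from that of a transcript below detection in OVA. ENSMUST00000190203 read -4.67 and -4.52 in the day 28 controls, both well above background, and -5.77, -5.53, -5.77 and -7.06 in OVA day 28, none of them well above background. The measured difference was -1.44 ± 0.36 (adjusted p = 0.0257, limma). It was the 1 of the 51 calls that entered the test only because its higher group detected it, so this p is no independent support for the difference. Since the OVA readings are undetected, the fold is given with a floor, as 2.21-fold lower. For each OVA array it takes the higher of the probe's own value and the lowest spot average of any detected probe. Undetected readings can lie above that floor, so the fold is not a strict lower limit. ENSMUST00000190203 missed the threshold in 5 of 25 other settings. Among them were a replicate block (adjusted p = 0.0524), array position as a block (0.0595) and only the groups compared (0.0579, all limma). It missed the threshold without control day 28 replicate 1 (-1.52, adjusted p = 0.105) or replicate 2 (-1.37, adjusted p = 0.143, both limma), and over other settings the adjusted p lay between 0.000700 and 0.143, with normexp giving -0.60.

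The other lower transcripts included 3 above the 75th percentile. ENSMUST00000162697 read 3.96 and 3.89 in the controls and 3.32, 3.29, 3.30 and 3.26 in OVA day 28, a difference of -0.63 ± 0.10 (1.55-fold lower, adjusted p = 0.00468, limma). The 4 OVA arrays agreed within 0.03 (SD) and lay below all 8 other arrays, which read 3.78 to 4.02. ENSMUST00000160227 read 3.30 and 3.64 against 2.73, 2.81, 2.64 and 2.60 (-0.77 ± 0.14, adjusted p = 0.00892, limma), and without control day 28 replicate 2 it missed the threshold (-0.61, adjusted p = 0.0910, limma), the highest p over other settings (lowest 0.00121). ENSMUST00000160099 read 1.28 and 1.70 against 0.89, 0.77, 0.93 and 0.97 (-0.60 ± 0.14, adjusted p = 0.0203, limma). Its day 14 values of 0.86 to 1.18 overlapped those of OVA day 28, so that the day 28 controls were the high group, and without control day 28 replicate 2 the difference was -0.39 (adjusted p = 0.177, limma, with 0.00335 as the lowest over other settings).

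ENSMUST00000125582 and ENSMUST00000191479 were dim in every group. They missed the threshold at day 28 in 4 and 11 of 25 other settings, changes of scaling, filter or model among them. ENSMUST00000125582 read -4.01 and -3.91 against -4.50, -4.70, -4.58 and -4.69 (-0.66 ± 0.14, adjusted p = 0.0135, limma), and missed the threshold without control day 28 replicate 1 (-0.71, adjusted p = 0.0587) or replicate 2 (-0.61, adjusted p = 0.0989, both limma), with 0.00151 as the lowest over other settings. ENSMUST00000191479 read -3.81 and -4.0 against -4.29, -4.49, -4.50 and -4.83 (-0.62 ± 0.18, adjusted p = 0.0413, limma). The latter lost its call without either day 28 control (-0.53 and -0.72, adjusted p = 0.222 and 0.119), with OVA day 14 replicate 3 left out (0.0569) and with any of OVA day 28 replicates 2, 3 and 4 left out (0.0742, 0.0759 and 0.0687, all adjusted p from limma), and over all settings its adjusted p ran from 0.00155 to 0.222. Its difference stayed between -0.72 and -0.50 throughout.

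**Figure D3:**
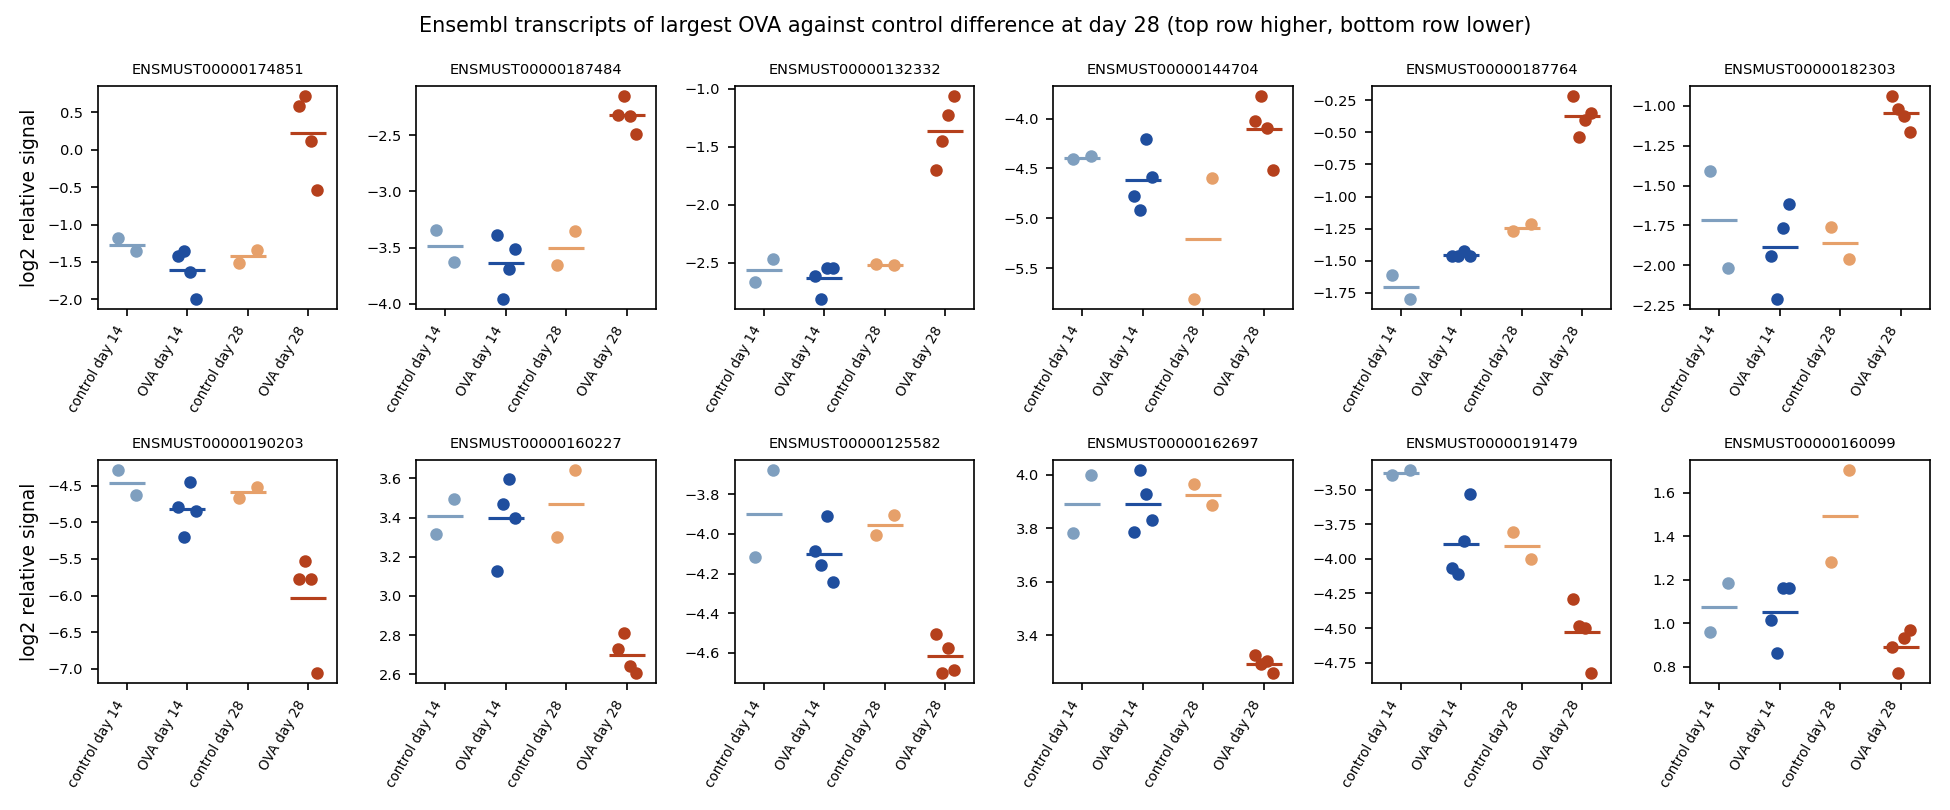
Signal (y axis, log2 over the array's 75th percentile, a scale of its own in each panel) of the 6 Ensembl transcripts with the highest fold and the 6 with the lowest among those called at day 28, in the 4 groups (x axis). Each point is 1 array and each bar a group mean; in all 12 panels the OVA day 28 points do not overlap the day 28 controls, which the choice required, and in the ENSMUST00000160099 panel they overlap the day 14 groups.

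The count of calls at day 28 fell most when a day 28 control or OVA day 28 replicate 1, 2 or 3 was left out. It was 47 without OVA day 28 replicate 4 and 34 to 51 without an OVA day 14 array. It was 12 without control day 28 replicate 1 and 12 without replicate 2, and 25, 25 and 24 without OVA day 28 replicate 1, 2 or 3, against 51 with all arrays. A fit without a control leaves 1 array in that group, which is assumed to vary like the other groups, and none of the 51 differences changed sign in these fits. The share of upward calls moved with the scaling and the background correction, and normexp turned the sign of 7 of the 51, the scalings of none. With the 75th percentile, 66.7% of the calls were upward. With the percentile taken over probes detected everywhere, 42 were upward and 9 downward (82.4% upward), and with normexp background correction 30 were upward and 232 downward. Of the 51, 5 stayed called in the same direction in all 26 other settings, among them every fit without 1 array: ENSMUST00000124214, ENSMUST00000132332, ENSMUST00000187764 and ENSMUST00000193114 upward and ENSMUST00000162697 downward. The setting with only probes detected on all arrays tested 38 of the 51, all of which kept their call, and the untested ones could not reach 26.

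ENSMUST00000124214 and ENSMUST00000193114 lie outside the rule by which the transcripts above were chosen and are named after their values were seen. ENSMUST00000193114 read 0.03 and 0.13 in the day 28 controls and 0.68, 0.72, 0.69 and 0.75 in OVA day 28 (0.63 ± 0.10, 1.55-fold, adjusted p = 0.00409, limma), and -0.12 to 0.13 on the 6 day 14 arrays. ENSMUST00000124214 read -1.75 and -1.26 in the day 28 controls and -0.68, -0.74, -0.69 and -0.71 in OVA day 28 (0.80 ± 0.13, 1.74-fold, adjusted p = 0.00547, limma). In both, the 4 OVA day 28 arrays agreed within 0.03 (SD) and were the highest of the 12.

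Between the OVA groups 147 of the 620 Ensembl transcripts differed, 77 higher and 70 lower at day 28. This comparison shares its day 28 arrays with the one above and rests on 4 arrays against 4. The 147 are 23.7%, whereas 31.7% of all tested probes were called, 15.1% higher and 16.5% lower. Of the 147, 3 entered the test only because their higher group detected them (368 of 24096 calls over all probes). Their p-values are no independent support for the differences. Of the transcripts, 12 were called at 2-fold or more (1.94%, against 2.68% of all probes), 10 higher and 2 lower. Arrays did not overlap for 158 transcripts (25.5%), 79 in each direction, against 35.3% of all probes (16.3% higher and 19% lower). The split between directions moved with the scaling: 52.4% of calls were upward, 73.8% with spike-in scaling (96 up and 34 down) and 9.78% with normexp (44 up and 406 down).

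The largest rise between the OVA groups was again that of ENSMUST00000174851, from -1.42, -1.36, -1.64 and -2.0 at day 14 to the day 28 values given above (1.83 ± 0.24, 3.55-fold, adjusted p = 0.000434, limma). ENSMUST00000186642 followed, from -3.72, -5.26, -4.30 and -3.88 to -2.45, -2.84, -2.46 and -2.68 (1.69 ± 0.27, 3.22-fold, adjusted p = 0.00118, limma). Its -5.26, on OVA day 14 replicate 2, lay below the lowest spot average of any probe detected on that array (-4.16). The fold therefore rests in part on an undetected reading. In the controls the transcript read -4.19 and -4.21 at day 14 and -3.53 and -3.46 at day 28, so that day 28 was higher than day 14 without overlap in both treatments. Between the OVA groups normexp gave 0.21, and its difference from the day 28 controls of 0.89 ± 0.33 did not pass (adjusted p = 0.101, limma). The next were ENSMUST00000187484 (1.32 ± 0.14, adjusted p = 0.000107, limma) and ENSMUST00000132332 (1.27 ± 0.13, adjusted p = 0.000108, limma), which normexp put at 0.24 and 0.58.

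Of the 4 lowest, ENSMUST00000193813 was the steadiest, at -2.78, -2.94, -2.95 and -3.12 at day 14 and -3.69, -3.60, -4.11 and -3.90 at day 28 (-0.87 ± 0.13, 1.83-fold lower, adjusted p = 0.000781, limma). Its controls were also lower at day 28 than at day 14, -3.44 and -3.83 against -3.04 and -3.05, and OVA and control of day 28 overlapped. ENSMUST00000182174 read -3.32, -2.64, -2.61 and -2.16 at day 14 and -3.39, -3.40, -3.88 and -3.61 at day 28 (-0.89 ± 0.23, adjusted p = 0.0125, limma). ENSMUST00000190203 was below detection in OVA day 28 and well above background on 1 of 4 arrays in OVA day 14, so no fold is given (measured difference -1.22 ± 0.29, adjusted p = 0.00930, limma). That difference was -0.87 without OVA day 28 replicate 4 and -0.75 with normexp.

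ENSMUST00000181680 had the lowest difference (-1.37 ± 0.43, adjusted p = 0.0315, limma), with -1.29, 1.14, -0.82 and -1.19 at day 14 against -1.98, -1.99, -2.03 and -1.63 at day 28. That size came from the single bright spot on OVA day 14 replicate 2 described above. With such disagreeing spot pairs left out, and so 3 OVA day 14 arrays, the difference was -0.81 (adjusted p = 0.00221, limma), the groups still not overlapping. The call was lost without OVA day 28 replicate 1, 2 or 3 (-1.34, -1.34 and -1.33, adjusted p = 0.0653, 0.0644 and 0.0703, limma). It missed the threshold in 6 of 26 other settings, over which the adjusted p ran from 0.00221 to 0.0703 (limma).

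**Figure D4:**
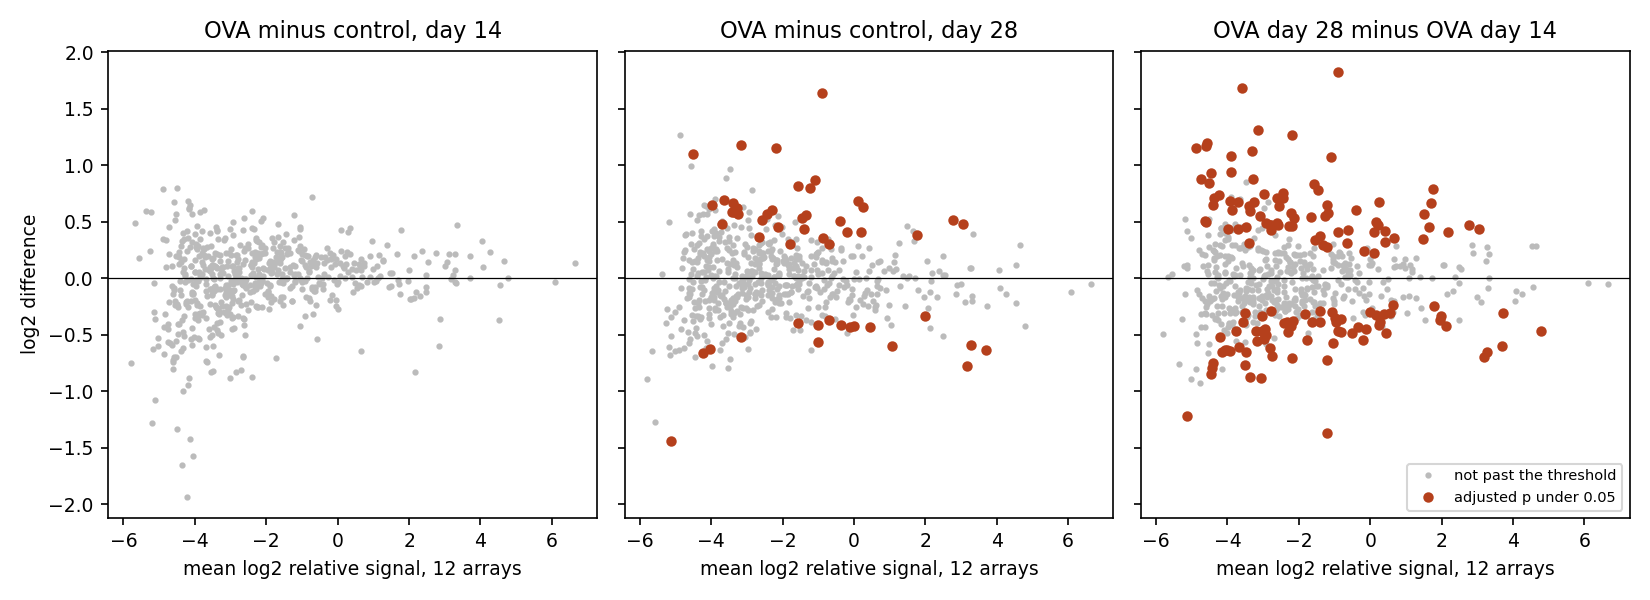
Log2 difference (y axis) against mean signal over the 12 arrays (x axis, log2 over the array's 75th percentile) for the 620 tested Ensembl transcripts in 3 comparisons, 1 point per transcript. Red points are past the adjusted p threshold of 0.05 in limma: 0 at day 14, 51 at day 28 and 147 between the OVA groups.

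At day 14 none of the 620 Ensembl transcripts passed the threshold for OVA against control in limma, and 38 of all 76096 probes did (0.0499%, with 0.0447% higher and 0.00526% lower). At an unadjusted p under 0.05 there were 88, 54 higher and 34 lower (14.2%, against 14% of all probes). The other settings gave 2 calls with quantile normalization, 2 with a trended and robust variance, and 1 each with spike-in scaling, normexp and only the transcripts detected on all arrays. Without control day 14 replicate 2, which leaves the array with the streak as the only day 14 control, 17 were called, all of them lower in OVA. Arrays did not overlap for 140 transcripts (22.6%), 88 of them higher and 52 lower, against 22.2% of all probes (14.5% higher and 7.72% lower). The median difference was 0.01, against 0.03 over all probes, with a median SE of 0.169, the same as at day 28.

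The day 14 difference of largest t was that of ENSMUST00000189033, which read -1.04 and -1.34 in the controls and -0.44, -0.49, -0.45 and -0.51 in OVA. Its 4 OVA arrays lay above both controls, and the difference of 0.72 ± 0.12 (1.64-fold) had an adjusted p of 0.0763 (limma), which lay between 0.0231 (trended and robust variance) and 0.367 over other settings. At day 28 it read -0.82 and -1.14 in the controls and -0.61, -0.65, -0.72 and -0.54 in OVA (0.35 ± 0.12, adjusted p = 0.0756, limma). It was higher in OVA without overlap on both days, and passed on neither. ENSMUST00000144029 read -4.49 and -4.65 in the controls and -3.79, -4.04, -3.80 and -4.04 in OVA (0.65 ± 0.15, adjusted p = 0.132, limma). It passed with quantile normalization (0.81, adjusted p = 0.0289, limma), the lowest of a range that reached 0.429.

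ENSMUST00000069741 had the largest difference by size at day 14, and that size was the reading of 1 spot. It read -1.79 and -3.55 in the controls and -4.47, -4.61, -4.46 and -4.87 in OVA (-1.93 ± 0.38, adjusted p = 0.0991, limma). On control day 14 replicate 1 its spots read 0.89 and -4.47, and with such pairs left out, which leaves replicate 2 as the only day 14 control, the difference was -1.06 (adjusted p = 0.181, limma). Without control day 14 replicate 2 it was -2.81 and passed (adjusted p = 0.000383, limma), whereas normexp gave -0.59, and the adjusted p reached 0.367 over other settings.

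The controls of day 28 and day 14, which share a slide, gave no Ensembl call in limma, and 0.00131% of all probes were called. At an unadjusted p under 0.05 there were 59 transcripts (9.52%, against 10.3% of all probes), and the 2 groups of 2 arrays did not overlap for 226 (36.5%, 116 higher and 110 lower, against 37.1% of all probes, 23.1% higher and 14% lower). No normalization or filter tried gave a call here. Without control day 14 replicate 2 there were 15, all lower at day 28. The largest t belonged to ENSMUST00000069741 (-1.92 ± 0.44, adjusted p = 0.293, limma), which was -1.05 with disagreeing spot pairs left out, again with 1 day 14 control (adjusted p = 0.358, in a range of 0.000850 to 0.858), and to ENSMUST00000187764. That transcript read -1.61 and -1.80 in the day 14 controls and -1.27 and -1.21 in the day 28 controls (0.46 ± 0.12, adjusted p = 0.335, limma).

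Whether the OVA effect itself differed between the days was tested as the day 28 difference minus the day 14 difference, which draws on all 4 groups. In limma 6 of the 620 Ensembl transcripts passed (0.968%), 4 higher and 2 lower, whereas 2.26% of all probes did, 1.37% higher and 0.882% lower. At an unadjusted p under 0.05 there were 101 (16.3%, against 21.2% of all probes). The 2 of largest t were ENSMUST00000187484, whose OVA effect was -0.15 at day 14 and 1.18 at day 28 (difference 1.33 ± 0.24, adjusted p = 0.0245, limma), and ENSMUST00000191241. The latter read 3.23 and 3.42 in the controls and 3.45, 3.52, 3.64 and 3.55 in OVA at day 14, and 3.39 and 3.56 in the controls and 2.78, 2.91, 2.90 and 2.97 in OVA at day 28. Its OVA effect was 0.21 ± 0.10 at day 14 and -0.59 ± 0.10 at day 28, without overlap on either day and with opposite signs, and the difference between them was -0.80 ± 0.15 (adjusted p = 0.0271, limma).

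The other 4 transcripts that passed are named after their values were seen. ENSMUST00000132332 (1.22 ± 0.23, adjusted p = 0.0290, limma) and ENSMUST00000162697 (-0.63 ± 0.14, adjusted p = 0.0469, limma) had day 14 effects of -0.06 and 0.00. ENSMUST00000174851 (1.98 ± 0.42, adjusted p = 0.0404, limma) and ENSMUST00000187252 (1.01 ± 0.22, adjusted p = 0.0442, limma) had day 14 effects of -0.34 and -0.39. ENSMUST00000187252 read -3.23 and -3.36 in the controls and -3.71, -3.33, -3.76 and -3.94 in OVA at day 14, which overlapped, and -3.33 and -3.53 against -2.70, -2.80, -3.00 and -2.72 at day 28, which did not. All 6 adjusted p-values thus lay between 0.0245 and 0.0469. The count was 1 without control day 14 replicate 1, control day 28 replicate 1, control day 28 replicate 2 or OVA day 28 replicate 1, it was 3 without OVA day 14 replicate 4, and it was 0 without OVA day 14 replicate 3 or OVA day 28 replicate 2 or 3. Without control day 14 replicate 2 it was 30. None of the 6 passed under every setting. The share of upward calls moved with the processing as well, with 66.7% of calls upward, 14 up and 0 down with spike-in scaling, 6 up and 1 down with the percentile over detected probes, 3 up and 4 down with quantile normalization, and 17 up and 223 down with normexp.

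**Figure D5:**
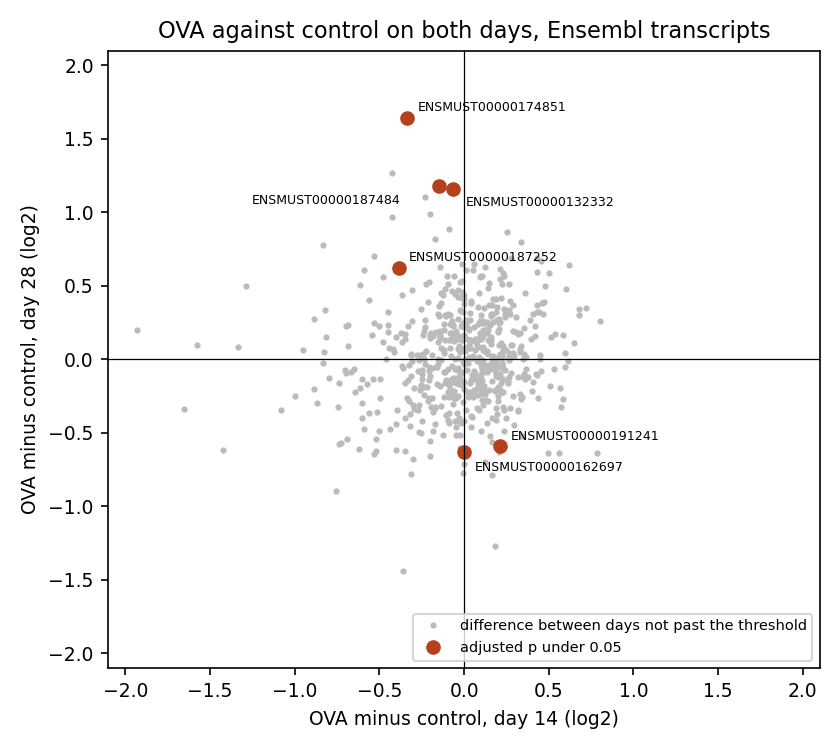
OVA minus control at day 14 (x axis, log2) against OVA minus control at day 28 (y axis, log2) for the 620 tested Ensembl transcripts, 1 point per transcript. The 6 red points are those whose effect differed between the days at an adjusted p under 0.05 in limma; 4 lie high on the day 28 axis and 2 low, with day 14 effects between -0.39 and 0.21.

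A total of 32 Ensembl transcripts were detected on every array of 1 group and on no array of another (5.16% of those tested, against 2.48% of all tested probes). This was not tested, and the transcripts are also dimmer than other probes. The commonest such pair was control day 28 on and OVA day 14 off (16 transcripts), a pair that includes OVA day 14 replicate 2. Of the 4 with the largest measured difference, ENSMUST00000190203 has been given above. ENSMUST00000134966 was on in all 4 OVA day 28 arrays (-4.06, -3.74, -4.19 and -4.62) and off in the 2 day 28 controls (-5.35 and -5.50) and in all OVA day 14 arrays (-4.70, -5.23, -4.64 and -6.67). With undetected readings raised to the floor described above, which is no detection limit, it was 2.41-fold higher than the day 28 controls. This did not pass (measured difference 1.27 ± 0.49, adjusted p = 0.110, limma). Against OVA day 14 it was 1.57-fold higher with that floor (measured difference 1.16 ± 0.40, adjusted p = 0.0459, limma). That call held in 15 of 26 other settings and in 5 of 12 fits without 1 array. The 26 include the setting with only probes detected on all arrays, which could not test it. Detection in OVA day 28 is also what brought this transcript into the test and into this selection, so neither p is independent support.

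ENSMUST00000125631 was on in the day 28 controls (-4.95 and -3.94) and off in the day 14 controls (-5.35 and -6.54) and in OVA day 14 (-5.81, -5.31, -6.36 and -5.56). Against the day 14 controls it was 1.87-fold higher with the same floor (measured difference 1.49 ± 0.54, adjusted p = 0.413, limma). ENSMUST00000187828 was on in the day 14 controls (-4.28 and -4.31) and off in OVA day 14 (-6.34, -5.24, -5.51 and -5.23). With the floor it was 1.72-fold lower in OVA (measured difference -1.29 ± 0.61, adjusted p = 0.381, limma). In OVA day 28 it was on in 2 arrays (-4.11 and -4.12) and at -5.73 and -6.25 in the other 2. Neither of these changes between on and off passed the test.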

How the data were processed

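Spleen RNA of 12 mice was hybridised to 12 one-colour Agilent arrays. The authors deposited scanner output per array: spot intensity on a linear scale, its processed signal background-corrected by Agilent Feature Extraction (per the file headers version 11.5.1.1, and 9.1 per the submitters' processing notes), and other columns holding spot flags. Another deposited table covers catalogue probes alone and was not used.

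Here the log2 processed signal minus the array's 75th percentile over non-control spots was averaged over a probe's spots without outlier flags. Limma 3.58.1 in R 4.3.3 was fitted to all 12 arrays with 4 group terms (8 residual degrees of freedom), and Benjamini-Hochberg adjustment ran over the 76096 probes that at least 1 group detected on all its arrays. The code was tested on simulated data. SEs come from that fit. Of the transcripts, 941 were measured on every array.

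The p-values measure the spread between these mice within groups. As every group lay on a single slide, that spread holds no variation between slides. Their housing and parallel handling are not given in the labels, and the number of arrays limits the precision. Transcripts named are the 6 brightest and 3 dimmest detected on all arrays, the 6 highest and 6 lowest folds per day (4 and 4 between OVA groups) among non-overlapping calls, or the 3 of largest t where fewer than 3 passed, the 2 of largest t for the control and between-day tests, 4 changing between on and off, and the 3 of largest and 1 of smallest SD. Members and lists were chosen with earlier results of these data known. Alternatives covered scaling, background correction (normexp, offset 50, on the median spot signal), filters, flags, the streak, blocks, variance models and leaving out each array. Leaving out disagreeing spot pairs was added after seeing the data.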

Additional observations from a re-analysis of the deposited data

Results flagged for a closer look

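In 4 of the 72 sets of 4 OVA arrays examined, 1 array stood apart from the other 3 by Dixon's test at its 95% critical value, where chance gives about 1 in 20. The sets were the named transcripts and, over all Ensembl transcripts, the share detected and the median signal. Neither of these summaries was marked. ENSMUST00000189178 read 6.91 on OVA day 14 replicate 1 and 6.59 to 6.62 on the other 3 arrays of its group. ENSMUST00000187764 read -1.42 on OVA day 14 replicate 3 against -1.47 to -1.46, a gap far smaller than its rise at day 28. ENSMUST00000190203 read -7.06 on OVA day 28 replicate 4 against -5.77 to -5.53, all below detection. ENSMUST00000181680 read -1.63 on OVA day 28 replicate 4 against -2.03 to -1.98. Over all 620 tested Ensembl transcripts the test marked 39 (6.29%) in OVA day 14 and 24 (3.87%) in OVA day 28.

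The OVA effect differed between the days, by the limma test of that difference, for ENSMUST00000174851 (1.98), ENSMUST00000187484 (1.33), ENSMUST00000132332 (1.22), ENSMUST00000187252 (1.01), ENSMUST00000162697 (-0.63) and ENSMUST00000191241 (-0.80), each value being the day 28 effect minus the day 14 effect on the log2 scale. None of the 6 kept its call in every other setting, and the 6 are 0.968% of the tested transcripts, against 2.26% of all probes.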

How the results depend on the processing

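Counts of Ensembl calls in limma moved with the background correction, the scaling, the filter and single arrays. Normexp gave 262 calls at day 28, 450 between the OVA groups, 240 for the difference between days and 1 at day 14. Of the 51 calls at day 28 it kept 36 and turned the sign of 7, among them ENSMUST00000144704 (-0.14). It moved the median of all probes to -0.16, -0.23 and -0.22 in the first 3 of these. Spike-in scaling gave 27 calls at day 28, 14 for the difference between days and 1 at day 14, with the median of all probes at -0.21 at day 14 and 0.17 for the difference between days. Without a filter on dim probes there were 24 calls at day 28 and 0 for the difference between days. With only probes detected everywhere there were 1 at day 14 and 14 for the difference between days. Quantile normalization gave 2 at day 14, a trended robust variance 2 at day 14 and 15 between days, and array weights 1 between days. With array position as a block there were 14 calls at day 28 and 0 between days. Leaving out each array gave 0 to 17 calls at day 14, 12 to 54 at day 28, 104 to 154 between the OVA groups, 0 to 15 between the controls and 0 to 30 between days. The median over arrays of each array's median Ensembl signal was -3.74, and it was -4.88 with the percentile over detected probes and -2.19 with normexp.

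Whether the replicate numbers pair the arrays was not settled. Same-numbered deviations correlated at -0.19 to 0.30. The 2 arrays of a control group deviate as mirror images, so pairs with controls cannot decide it. Between the 2 OVA groups the correlations were -0.06 to 0.07. A replicate block gave 27 calls at day 28 (23 of the 51) and 2 for the difference between days. Of 688 values of named transcripts under other settings, 615 kept direction and side of the threshold, 64 missed the threshold, 8 newly passed and 1 turned sign. The 615 include differences that had not passed at first, for which the same side means still not called. They also include fits without an array of an uncompared group, which leave the difference unchanged. Of the calls, 5 of 51 at day 28 and 46 of 147 between the OVA groups held in all 26 settings. A call that a setting did not test counts here as not held. With only probes detected on all arrays, 38 of the 51 and 100 of the 147 were tested, and all of these kept their calls. The cause of these shifts was not tested. Signal over background limits the dimmest transcripts, 196 of which were detected nowhere.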
